A study of Mus musculus with 76 samples.

Results

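Livers of female mice homozygous for an engineered C allele of *Fnip2* (Fnip2C/C) were compared with livers of mice homozygous for the T allele (Fnip2T/T), gene by gene. The comparison took in 5 Fnip2C/C mice (numbers 590, 591, 592, 638 and 639) and 5 Fnip2T/T mice (607, 608, 657, 658 and 659), with 1 column of normalized counts per mouse, and covered the 11710 genes of 16775 in the liver table whose mean normalized count over the 10 livers was at least 10. A normalized count here is the number of reads of a gene divided by 1 size factor per library. All mice had free access to food. The C allele was made in C57BL/6 mice with Cas9, 1 guide RNA and a repair oligonucleotide, and besides the T-to-C change it carries a G-to-C change that removes the site the guide needs, so that the genotypes differ at 2 bases and T/T controls carry neither. Every other allele and treatment was shared by the groups as far as the labels state them, and the age of the mice and whether they were littermates are not given in the sources used here. The question addressed was which liver transcripts differ with the allele.

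*Fnip2* encodes folliculin interacting protein 2, which, like its relative *Fnip1*, binds folliculin (*Flcn*). This complex acts at the lysosome as a GTPase activating protein for RagC and RagD, through which amino acids control the kinase mTORC1 and the transcription factors TFEB and TFE3. In liver, mTORC1 and the TFE factors bear on lipid synthesis, lysosome biogenesis, gluconeogenesis and the response to fasting. MicroRNAs pair with mRNA mainly through their seed, bases 2 to 8, and pairing in a 3′UTR usually lowers the stability or translation of the mRNA.

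The edited base lies in a match to the seed of the miR-181 family. The 4 mouse miR-181 5p sequences are shown with the seed in capitals (RefSeq, GRCm38.p6), because all 4 share it.
mmu-miR-181a-5p: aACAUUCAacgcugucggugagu
mmu-miR-181b-5p: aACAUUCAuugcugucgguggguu
mmu-miR-181c-5p: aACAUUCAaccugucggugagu
mmu-miR-181d-5p: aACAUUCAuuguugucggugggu
The stretch of 30 bases around the site is shown for both alleles, 5′ to 3′ along the transcript, with the 7 bases that face the seed in capitals. It was read from transcript Fnip2-203 of GENCODE vM21 (chr3:79457269-79457298, GRCm38, minus strand, last of 18 exons), and the C allele was built from it with the site variants in the study's supplementary text.
Fnip2 T allele: gataagtgataTGAATGTataggcaattgt
Fnip2 C allele: gataagtgataTGAACGTatacgcaattgt
The T-to-C change is base 16 of this stretch and faces base 4 of the microRNA, inside the seed, while the G-to-C change is base 22 and lies outside the seed match. In the transcript of 7299 bases the T-to-C position is base 2380 of a 3′UTR of 3689 bases, 1309 bases before the annotated end. The letters TGAATGT occur at 1 other place of Fnip2-203, at base 6561, so the edited transcript keeps 1 of 2 such matches. The libraries read the 3′ end of transcripts, and the table gives 1 value per gene, so the allele itself could not be read from it.

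The 10 libraries held between 5583041 and 7523200 reads assigned to genes, recovered from the deposited values. Replicate livers of 1 genotype correlated with a Spearman coefficient between 0.958 and 0.978 across genes, and none of the 20 pairs agreed within counting error (chi-square per degree of freedom of at least 8.40). The 8 hepatocyte markers were all measured, and their summed normalized count lay between 536000 and 726200. *Xist*, transcribed from the inactive X chromosome, lay between 1852 and 3235, and the Y-linked *Ddx3y* and *Eif2s3y* were not in the liver table. Of the 6 adipocyte markers, *Adipoq*, *Lep*, *Plin1* and *Retn* were not in the liver table, and *Cfd* was 38.9 in mouse 591 and at most 1.86 elsewhere. Summed levels of cholangiocyte, Kupffer cell, stellate cell, sinusoidal endothelial, lymphocyte, neutrophil, erythroid, adipocyte, pancreatic acinar and mesothelial markers overlapped between genotypes. T/T mouse 658 stood apart on pancreatic acinar markers, with a sum of 63.7 where every C/C liver had at most 8.20 (*Ctrb1* 20.9, *Pnlip* 18.7). The liver columns with even RNA label numbers (2 C/C and 3 T/T) come before those with odd numbers (3 C/C and 2 T/T) in the deposited table, and each column was assigned by its name. Nothing in the sources used here states whether the names follow the order of the counts, and every genotype value rests on them. The study's gene set enrichment in liver placed bile acid metabolism, xenobiotic metabolism and oxidative phosphorylation higher in T/T. With columns as named, the C/C mean was higher in 17 of 19 bile acid, 25 of 32 xenobiotic and 59 of 77 respiratory chain genes. The gene sets and measures are not the same, and the reason for the opposite direction was not tested. Even against odd labels, compared after the data were seen with genotype in the fit, gave 0 calls with limma, 0 with edgeR and 9 with DESeq2 at an adjusted p under 0.05, and 495 genes (4.23%) at an unadjusted limma p under 0.05. DESeq2 on the labels alone over the whole table called 13. The labels give no batch, and mouse numbers fall in 2 ranges, under 610 (3 C/C and 2 T/T) and over 630 (2 C/C and 3 T/T).

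*Fnip2* itself had a higher mean in C/C livers, and the groups overlapped. Its normalized count was 134, 133, 174, 137 and 197 in C/C mice 590, 591, 592, 638 and 639. The T/T mice 607, 608, 657, 658 and 659 had 134, 115, 123, 98.8 and 49.2. Of the C/C livers, 4 lay above the highest T/T liver, mouse 607 (133.96), but mice 590 (134.4) and 638 (136.6) only just. Mouse 591 lay just under it, while mouse 659 had by far the lowest value. The means were 155 ± 29.2 (SD, n = 5) in C/C and 104 ± 33.2 (SD, n = 5) in T/T, a log2 difference of 0.63 ± 0.23 (SE) with a 95% interval from 0.142 to 1.122 (exact two-sided permutation test, p = 0.0159, where 0.00794 is the smallest p the design allows). After Benjamini-Hochberg adjustment over the 11710 genes the limma p was 1.00. Without mouse 659 the log2 difference was 0.39. It was 0.23 among mouse numbers under 610 and 0.95 among those over 630.

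*Fnip1* and *Flcn*, the partners of *Fnip2*, differed less. For *Fnip1*, C/C livers had 317, 325, 277, 314 and 282 and T/T livers had 237, 348, 290, 229 and 212 (log2 difference 0.22, 95% interval -0.07 to 0.51, exact permutation p = 0.143). All 5 C/C values lay within the T/T range, which was wider. For *Flcn*, C/C livers had 93.8, 78.7, 82.0, 59.0 and 76.0 and T/T livers had 71.7, 101, 73.2, 57.1 and 57.5 (log2 difference 0.13, 95% interval -0.25 to 0.50, exact permutation p = 0.468). Both limma adjusted p-values were 1.00.

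**Figure D1:**
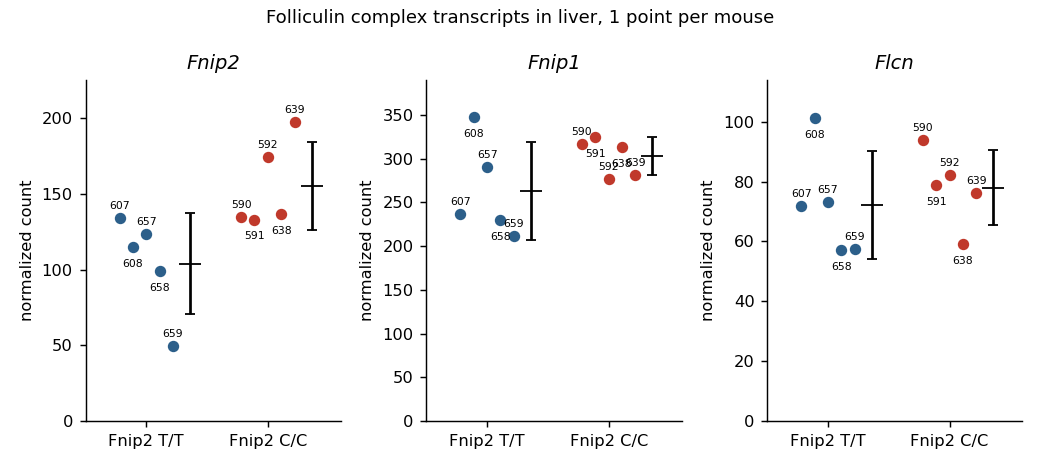
Normalized counts of *Fnip2*, *Fnip1* and *Flcn* in liver, with genotype on the x axis, 1 point per mouse labelled with its number, and the mean with SD beside each group of 5. For *Fnip2*, 4 of 5 C/C livers lie above all T/T livers, mice 590 and 638 only just, and mouse 659 lies at 49.2. For *Fnip1* and *Flcn* the groups overlap more widely.

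The 3 transcripts were also compared with each other over the 10 livers on the log2 scale. *Fnip1* and *Flcn* gave r = 0.704 (permutation p = 0.0248, 0.0744 adjusted over the 3 pairs) and rho = 0.745 (permutation p = 0.0178, 0.0535 adjusted). Leaving out mice 658 and 659, whose *Fnip1* values were farthest from the median, gave r = 0.413, so the relation rested on them in part. *Fnip2* with *Fnip1* gave r = 0.546 (permutation p = 0.0941, 0.141 adjusted) and rho = 0.212 (permutation p = 0.561, 0.561 adjusted), and r = 0.183 without mice 639 and 659. *Fnip2* with *Flcn* gave r = 0.467 (permutation p = 0.178, 0.178 adjusted) and rho = 0.358 (permutation p = 0.313, 0.469 adjusted), and r = 0.262 without the same mice. With each value centred on its genotype mean, r was 0.350 for *Fnip2* with *Fnip1*, 0.421 for *Fnip2* with *Flcn* and 0.696 for *Fnip1* with *Flcn*. No adjusted p was under 0.05 on the deposited scale, and with libraries scaled to the same total that of *Fnip1* with *Flcn* was 0.0443 (permutation test, r = 0.747).

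Across the whole transcriptome no gene passed the test between Fnip2C/C and Fnip2T/T livers. Limma with Benjamini-Hochberg adjustment called 0 of 11710 genes (0%) at an adjusted p under 0.05, and the lowest adjusted p was 1.00. Without adjustment, 231 genes (1.97%) had a p under 0.05, 121 (1.03%) with a higher mean in C/C and 110 (0.939%) with a lower mean. The count models edgeR and DESeq2, run on the recovered reads, also called 0 genes. The study itself reported a few genes as differentially expressed in liver, without describing its test, filter or threshold. The median log2 difference over all genes was 0.01.

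The intervals tell how large a difference these 10 livers would leave room for. The 95% interval of the log2 difference lay within -1 to 1, that is within 2-fold in either direction, for 10669 genes (91.1%), and within -0.5 to 0.5 for 5855 genes. Precision followed expression. In the lowest quartile of genes by mean normalized count (10.01 to 33.4) the interval lay within -1 to 1 for 73.7% of genes and its median half-width was 0.62, against 97.0% and 0.28 in the highest quartile. Only 41 genes (0.350%) had a log2 difference of more than 1 in size. For 13 of the 14 genes tested of the folliculin complex, the Rag GTPases, the Ragulator scaffold and the TFE factors the interval lay within -1 to 1, and *Fnip2* was the exception. *Tfeb* (0.08, 95% interval -0.31 to 0.48), *Tfe3* (0.03, -0.31 to 0.38) and *Rragc* (0.14, -0.21 to 0.49) are given as log2 differences. For lysosomal genes, which TFEB and TFE3 are known to activate, it did so for 36 of 36.

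**Figure D2:**
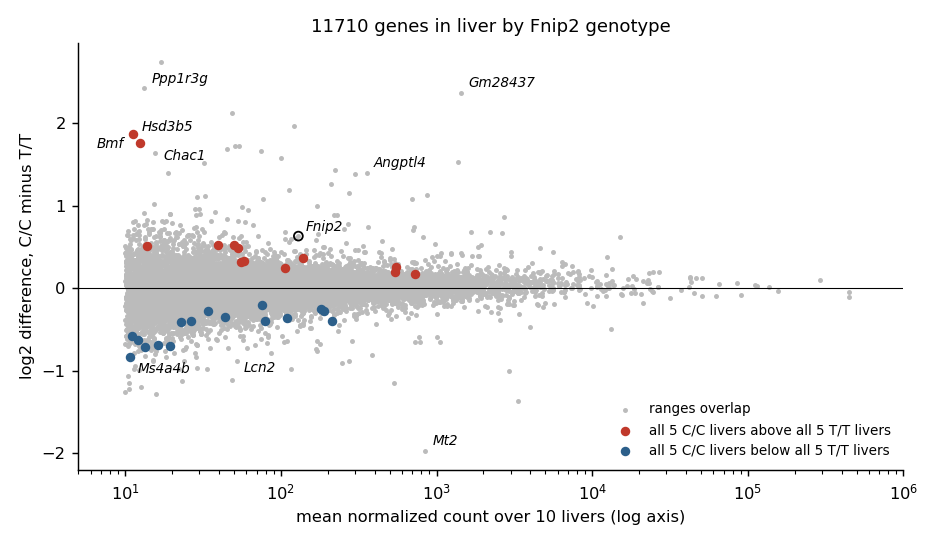
Log2 difference between Fnip2C/C and Fnip2T/T livers (y axis) against the mean normalized count over 10 livers (x axis, log scale) for 11710 genes, with the 13 and 16 genes whose genotypes did not overlap in red and blue and *Fnip2* circled. Differences narrow towards high counts, and none of the genes passed the adjusted test.

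In 29 genes the values of the genotypes did not overlap at all. In 13 of them (0.111% of genes tested) all 5 C/C livers lay above all T/T livers, and in 16 (0.137%) all lay below. These genes were picked for that pattern, so no test is given for them. If genotype labels were placed at random, full separation in either direction would have a probability of 0.00794 per gene. That is more than the 2 shares seen here together, so the count is not an excess. The mean normalized counts of the 29 genes ran from 10.8 to 731.1 and their log2 differences from 0.177 to 1.86 in size. Some, among them *Bmf*, *Hsd3b5*, *Ms4a4b* and *Rp2*, had a mean under 10 in 1 genotype and passed the filter only through the other. Only 1 of the 29, *Hsd3b5*, belongs to the 25 gene lists described further on.

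The largest differences among the 13 were in 2 weakly expressed genes, *Bmf* and *Hsd3b5*. Their means were 5.15 and 4.38 in T/T livers, so they passed the filter of 10 only through the C/C livers (19.7 and 18.1). *Bmf* encodes a BH3-only protein that promotes apoptosis. Its normalized count was 17.1, 14.5, 26.4, 29.0 and 11.6 in C/C livers and 1.89, 7.65, 6.10, 5.49 and 4.64 in T/T livers. The lowest C/C liver, mouse 639, lay above the highest T/T liver, mouse 608, and the log2 difference was 1.76 ± 0.37 (SE). *Hsd3b5* encodes a 3β-hydroxysteroid dehydrogenase isoform of mouse liver known to be far more abundant in males. It had 15.3, 21.7, 7.29, 21.7 and 24.3 in C/C and 3.77, 5.74, 4.88, 6.59 and 0.928 in T/T livers, a log2 difference of 1.86 ± 0.42 (SE). The margin between the groups was small, 7.29 in C/C mouse 592 against 6.59 in T/T mouse 658. Of the 50-base words of its annotated transcripts, 18.7% also occur in other *Hsd3b* genes, so part of its reads could be shared with them. Within the lower and upper mouse number range the log2 difference was 1.98 and 1.61 for *Bmf* and 1.36 and 2.44 for *Hsd3b5*. Its direction there was fixed by the choice of genes without overlap.

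The other higher genes differed by less. *Sec24d*, a coat protein of vesicles that leave the endoplasmic reticulum, had 143, 133, 163, 145 and 197 in C/C and 115, 115, 122, 127 and 121 in T/T livers (log2 difference 0.37 ± 0.13, SE). The T/T livers lay close together and the C/C livers were more spread. *Asap2*, which encodes a GTPase activating protein for Arf proteins, had 56.8, 61.5, 58.3, 67.3 and 64.4 in C/C and 39.6, 52.6, 49.99, 40.6 and 37.1 in T/T livers (0.49 ± 0.16). The remaining named genes on this side had log2 differences between 0.24 and 0.53. They were the uncharacterized *2610528J11Rik* (0.52) and *Gm37474* (0.52), the zinc finger genes *Zfp874b* (0.53) and *Zfp740* (0.24), *Kif1b* (0.26), which encodes a kinesin motor, and *Pdzd8* (0.33), a protein of endoplasmic reticulum contact sites.

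On the lower side the log2 differences of the 10 named genes ran from -0.84 to -0.25. *Gimap9*, an immune-associated GTPase gene of lymphocytes, had 199, 152, 190, 208 and 165 in C/C and 225, 265, 255, 243 and 214 in T/T livers (-0.40 ± 0.13, SE). *Ms4a4b*, a membrane protein gene of T cells, had 9.02, 9.05, 10.03, 2.07 and 9.50 in C/C and 16.0, 10.5, 14.6, 13.2 and 13.9 in T/T livers (-0.84 ± 0.37). The gap between the groups was narrow in both. Of the 10 lymphocyte markers, 9 were in the table and 2 were tested (*Cd79b* log2 difference -0.66, *Nkg7* -0.23), *Cd79a* was not in the table, and the summed normalized count of the list was 40.1 to 69.3 in C/C and 63.4 to 87.9 in T/T livers, and its part in these 2 genes was not tested. In bulk tissue, fewer cells of a type and less RNA per cell cannot be told apart.

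The other lower genes were *Rabl2* (-0.70), a small GTPase of cilia, *Poc5* (-0.69), a centriole protein, *Slc39a6* (-0.71), a zinc transporter, and *Rp2* (-0.62), a regulator of the GTPase Arl3. *Cops7b* (-0.40) encodes a COP9 signalosome subunit, *Nt5c* (-0.37) a nucleotidase, *Tpm4* (-0.27) a tropomyosin and *Rdh5* (-0.25) a retinol dehydrogenase. Their lowest normalized counts in a T/T liver were only just above the highest in a C/C liver for *Cops7b* (83.5 against 82.4), *Nt5c* (108.5 against 106.7), *Rp2* (12.06 against 11.85), *Rdh5* (185.6 against 181.4) and *Tpm4* (184.5 against 176).

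**Figure D3:**
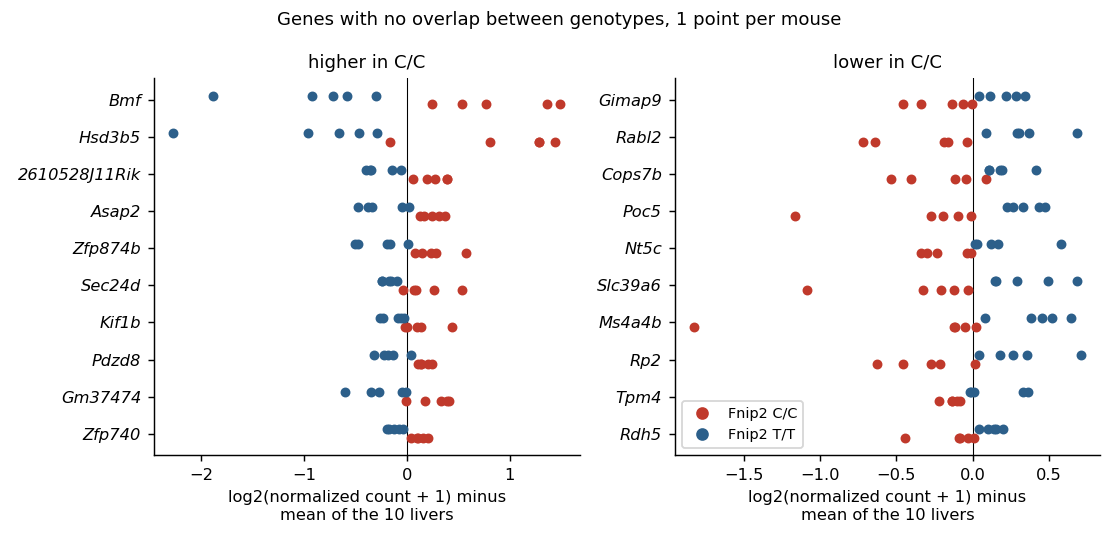
Log2(normalized count + 1) of each liver minus the mean of the 10 livers (x axis) for the 10 higher and the 10 lower genes with the lowest p among those whose genotypes did not overlap (y axis), 1 point per mouse, C/C in red and T/T in blue. *Bmf* and *Hsd3b5* stand apart with log2 differences of 1.76 and 1.86, while most others differ by less than 0.8.

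The gene lists covered 568 genes tested, of which 0 passed the adjusted test and 23 (4.05%) had an unadjusted p under 0.05, beside 1.97% of all genes. The median log2 difference of the 25 lists ran from -0.18 for acute phase proteins to 0.18 for fatty acid and triglyceride synthesis, beside 0.01 for all genes, and it was above 0 in 16 lists and below 0 in 9. Since no member passed, the counts are of means and carry no test. Members of a list can move together, so a single outlying liver can set many of these means.

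Among the 14 genes of the folliculin, Rag and TFE list, the C/C mean was higher in 11 and lower in 3, with a median of 0.10, and 1 gene, *Fnip2*, had an unadjusted p under 0.05. The list of mTORC1 and its regulators had a higher C/C mean in 19 of 26 genes (median 0.05), with 2 at an unadjusted p under 0.05. *Tsc1*, a subunit of the complex that restrains mTORC1, had 198, 224, 208, 244 and 233 in C/C and 154, 200, 198, 184 and 176 in T/T livers (log2 difference 0.28 ± 0.12, SE). In *Tsc1* 4 of 5 C/C livers lay above every T/T liver. *Eif4ebp1*, a translation repressor that mTORC1 phosphorylates, had a log2 difference of 0.29 ± 0.14 (SE), with T/T mouse 608 at 284 above all C/C livers. The 36 lysosomal genes had a median of 0.03, with *Npc1*, a cholesterol exporter of the lysosome, at 0.34 and the autophagy gene *Gabarapl1* at 0.28.

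In the glucose programs the mean was higher in C/C for 16 of 19 gluconeogenesis genes (median 0.11), 2 of them at an unadjusted p under 0.05. Averaged over its members, relative to the mean of all livers, this list stood at 0.38 in C/C mouse 591. The other C/C livers lay between -0.14 and 0.15, and the T/T livers between -0.22 and 0.03. *Pck1*, the cytosolic phosphoenolpyruvate carboxykinase, had 2451, 5376, 1882, 3407 and 4337 in C/C and 1050, 1894, 2960, 1375 and 2253 in T/T livers (log2 difference 0.87 ± 0.35, SE). *G6pc*, the catalytic subunit of glucose-6-phosphatase, had 3511, 2834, 1517, 3028 and 2569 in C/C and 1724, 880, 2269, 1788 and 1818 in T/T livers (0.68 ± 0.27). In both genes the groups overlapped, through C/C mouse 592 among the low values and T/T mouse 657 among the high ones. In the glycolysis and glycogen list the mean was higher in C/C for 15 of 24 genes (median 0.07). *Ppp1r3g*, a glycogen-targeting subunit of protein phosphatase 1 that responds to feeding, had 12.6, 14.5, 6.38, 16.6 and 64.4 in C/C and 2.83, 0.956, 12.2, 1.098 and 0.928 in T/T livers. Most T/T livers were near 1 to 3 and mouse 657 was at 12.2, so that 1 T/T liver lay above the lowest C/C liver. Its log2 difference, 2.43 ± 0.61 (SE), was the largest of any list member. *Pfkfb3*, which makes the glycolytic activator fructose 2,6-bisphosphate, differed by 0.61 ± 0.24.

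Lipid programs did not share a direction. Fatty acid and triglyceride synthesis had a higher C/C mean in 17 of 20 genes (median 0.18), 1 at an unadjusted p under 0.05. Averaged over its members, relative to the mean of all livers, the list stood at 0.91 in C/C mouse 639. The other C/C livers lay between -0.17 and 0.02. T/T mouse 607 was at 0.63 and the other T/T livers lay between -0.59 and -0.09. The higher C/C means thus rested largely on mouse 639. That gene, *Lpin2*, encodes a phosphatidate phosphatase and had 692, 1181, 616, 745 and 1308 in C/C and 482, 544, 752, 419 and 455 in T/T livers (log2 difference 0.74 ± 0.22, SE). C/C mice 591 and 639 lay well above all T/T livers, and T/T mouse 657 lay above the other 3 C/C livers. Its relative *Lpin1* ran from 402 to 2433 in C/C and from 230.2 to 566 in T/T livers (log2 difference 1.077 ± 0.57). Sterol synthesis and uptake went the other way by its means, lower in C/C for 20 of 24 genes (median -0.09), with 0 at an unadjusted p under 0.05 and *Mvk*, an enzyme of the mevalonate pathway, at -0.22. Fatty acid oxidation and ketogenesis had a median of -0.01 with 13 of 28 means higher, and *Slc22a5*, a carnitine transporter, differed by 0.72 ± 0.34. Among lipid droplet genes (median -0.02) *G0s2*, an inhibitor of adipose triglyceride lipase, was at -0.91 ± 0.45 and *Hilpda*, another inhibitor of that lipase, at -0.55 ± 0.26.

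Acute phase proteins had the lowest median of the 25 lists, -0.18, with a lower C/C mean in 26 of 30 genes and 4 at an unadjusted p under 0.05, all lower. Of all genes, 48.2% had a lower C/C mean and 0.939% a lower mean with an unadjusted p under 0.05. Averaged over its members, relative to the mean of all livers, the acute phase list was highest in T/T mice 659 (0.41) and 657 (0.34). T/T mice 607 and 608 were at 0.13 and 0.08. T/T mouse 658 (-0.16) lay within the C/C range, -0.35 to -0.08. *Lcn2*, the iron siderophore-binding protein lipocalin 2, had 45.1, 34.4, 28.3, 36.2 and 31.7 in C/C and 69.8, 70.7, 101, 32.9 and 69.6 in T/T livers (log2 difference -0.88 ± 0.24, SE). Only T/T mouse 658 fell within the C/C range. *Saa1*, serum amyloid A, had 284, 173, 321, 432 and 206 in C/C and 370, 461, 468, 391 and 741 in T/T livers (-0.81 ± 0.25), and 31.1% of the 50-base words of its transcripts also occur in *Saa2*, which was at -0.88. *Fgl1*, a secreted protein of hepatocytes, was at -0.47, and *Hamp*, the iron hormone hepcidin, at 0.38. Markers of neutrophils, which are also known to hold *Lcn2*, summed to between 63.1 and 156 in C/C and between 71.7 and 411 in T/T livers, 2 of 6 not being in the table (*Csf3r* and *Ly6g*), and their part was not tested. The interferon and antigen presentation list had lower C/C means in 19 of 27 genes (median -0.05), with *Isg15* at -0.44 ± 0.20 and the immunoproteasome gene *Psmb8* at -0.24 ± 0.13.

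Stress programs had list medians between -0.05 and 0.11, beside 0.01 for all genes, with larger differences in single members. Of 15 ATF4 targets, 9 had a higher C/C mean (median 0.11) and 2 an unadjusted p under 0.05. *Chac1*, which degrades glutathione, had 20.7, 21.7, 24.6, 13.5 and 34.8 in C/C and 4.72, 2.87, 19.5, 5.49 and 6.50 in T/T livers (log2 difference 1.64 ± 0.39, SE). Only T/T mouse 657 reached the C/C range. *Chac1* too passed the filter of 10 only through the C/C livers (mean 23.1, against 7.82 in T/T). *Trib3*, a pseudokinase, had 43.3, 34.4, 54.7, 57.9 and 65.5 in C/C and 42.5, 29.6, 41.5, 27.5 and 21.3 in T/T livers (0.65 ± 0.23), where C/C mouse 591 lay among the T/T livers. The medians were 0.03 for endoplasmic reticulum chaperones (*Herpud1* 0.41, *Xbp1* -0.23), -0.04 for cytosolic heat shock chaperones (*Hspb8* -0.28, *Dnaja1* -0.17) and -0.05 for immediate early genes (*Ier5* -0.47, *Ier3* -0.54).

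Zonation, bile acid, xenobiotic and mitochondrial genes gave no call either. Periportal genes had a median of 0.07, with *Apoa4*, an apolipoprotein, at 0.53 ± 0.18 (SE) and *Cyp2f2* at 0.32 ± 0.16. Pericentral genes had a median of 0.17, but the 2 members with an unadjusted p under 0.05 had lower C/C means, the neutral amino acid transporter *Slc1a4* at -0.58 ± 0.21 and the transcription factor *Tbx3* at -0.65 ± 0.27. Bile acid synthesis and transport had a median of 0.17 with 17 of 19 means higher (*Cyp7b1* 0.39, *Cyp27a1* 0.26), and *Cyp7a1*, the rate-limiting enzyme of bile acid synthesis, at -0.65 as its lowest member. Xenobiotic metabolism had a median of 0.16 with 25 of 32 means higher, *Cyp2b10* at 0.43 and *Cyp1a2* at 0.44. Averaged over members, T/T mouse 659 was the lowest liver for the pericentral (-0.66), bile acid (-0.37) and xenobiotic (-0.55) lists. The other T/T livers lay at -0.30 to 0.41, -0.14 to 0.14 and -0.20 to 0.27. For the pericentral list the C/C livers, at -0.15 to 0.26, lay within the range of those other T/T livers. Respiratory chain subunits had a median of 0.05, with the interval within -1 to 1 for 76 of 77 genes (*Atp5pb* 0.19, *Ndufb6* 0.17), and mitochondrially encoded genes had a median of -0.01 (*mt-Nd6* 0.18, *mt-Co1* 0.10). Clock genes had a median of 0.09 (*Nr1d2* 0.55, *Noct* 0.51), cell cycle genes -0.09 (*Tyms* -0.24, *Birc5* 0.35) and apolipoproteins and hepatokines 0.01 (*Lipc*, hepatic lipase, 0.23).

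Growth hormone and sex-dependent genes had a median of 0.14, with 12 of 22 means higher in C/C and 2 genes, *Hsd3b5* and *Mup3*, at an unadjusted p under 0.05. The major urinary protein gene *Mup3* had 15296, 18396, 13786, 19330 and 22926 in C/C and 12920, 15022, 12505, 15984 and 5256 in T/T livers (log2 difference 0.62 ± 0.27, SE). T/T mouse 659 was lowest by a wide margin, and the groups overlapped. Without that mouse the log2 difference was 0.33, and it was 0.17 among mouse numbers under 610 and 1.05 among those over 630.

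**Figure D4:**
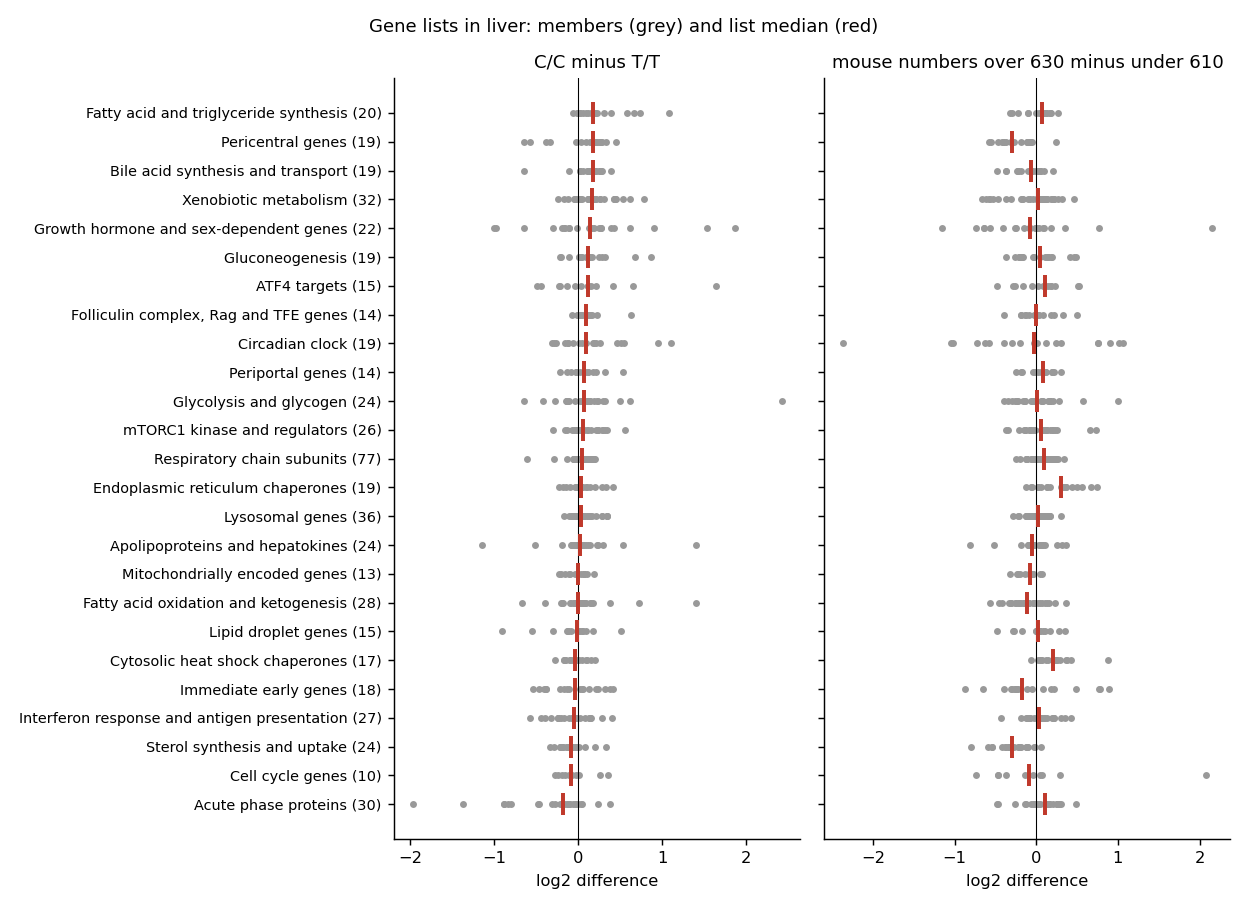
Log2 differences (x axis) of the members of 25 gene lists (y axis, number of genes tested in brackets) between genotypes on the left and between mouse number ranges on the right, with members in grey and medians in red. List medians lie between -0.18 and 0.18 for genotype, and between -0.30 and 0.30 for number range, where the endoplasmic reticulum chaperones are highest and the pericentral and sterol genes lowest.

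Some genes varied widely between mice of 1 genotype. The 8 genes, picked for the largest spread among 5486 genes with a mean of at least 100, had an SD of log2 values over the 10 livers between 1.55 and 2.74, beside a median of 0.28 over all genes tested, and none passed the genotype test. *Gm28437* ran from 68.6 to 5374 in C/C and from 69.5 to 1613 in T/T livers, with mice 591, 592, 638 and 659 at 1613 or more and the other livers at 126 or less. All 734 of the 50-base words of its annotated transcript also occur in the mitochondrial gene *mt-Co3*, so its reads cannot be told apart from those of that gene. *Cyp26b1*, a retinoic acid hydroxylase, was highest in C/C mice 638 and 639 (424 and 271) and lowest in T/T mouse 608 (3.82). *Angptl4*, a lipoprotein lipase inhibitor and PPAR target, ran from 24.1 in mouse 659 to 1156 in mouse 657, both T/T. *C4a*, a complement gene that shares 30.6% of its words with *C4b*, ran from 28.3 to 316 in C/C and from 19.5 to 584 in T/T livers, and the sign of its genotype difference (-0.19) turned when single mice were left out.

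Mouse 659 and mouse 591 stood at the ends of several of these genes. Metallothionein 2 (*Mt2*), induced by metals and glucocorticoids, had 604, 140, 238, 115 and 246 in C/C and 1348, 725, 995, 142 and 3884 in T/T livers (log2 difference -1.97 ± 0.86, SE), and mouse 659 was highest. The urinary protein genes *Mup16* (13.9) and *Mup22* (5.57) and the *Gm13775* transcript (0.928) were lowest in the same mouse. *Mup22* was highest in mouse 591 at 515, and all its 50-base words also occur in other *Mup* genes, as do 91.7% of those of *Mup16*. *A1bg*, a gene known to be female-biased in mouse liver, ran from 176 in mouse 591 to 9384 in mouse 659 (log2 difference between genotypes -1.01), and *Cux2*, a female-biased transcription factor, was lowest in C/C mice 638 (21.7) and 591 (25.3) and 91.1 or more in the other 8 livers. Mouse 659 had the highest score on the second principal component, 37.8, where the other livers lay between -19.2 and 17.3, and mouse 591 had the lowest on the first, -35.3, the others lying between -16.8 and 23.4. These components held 16.6% and 19.3% of the variance. Among C/C and T/T livers alike, 10.9% to 29.2% of genes had their highest or lowest value in a given mouse, most often in mouse 591.

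**Figure D5:**
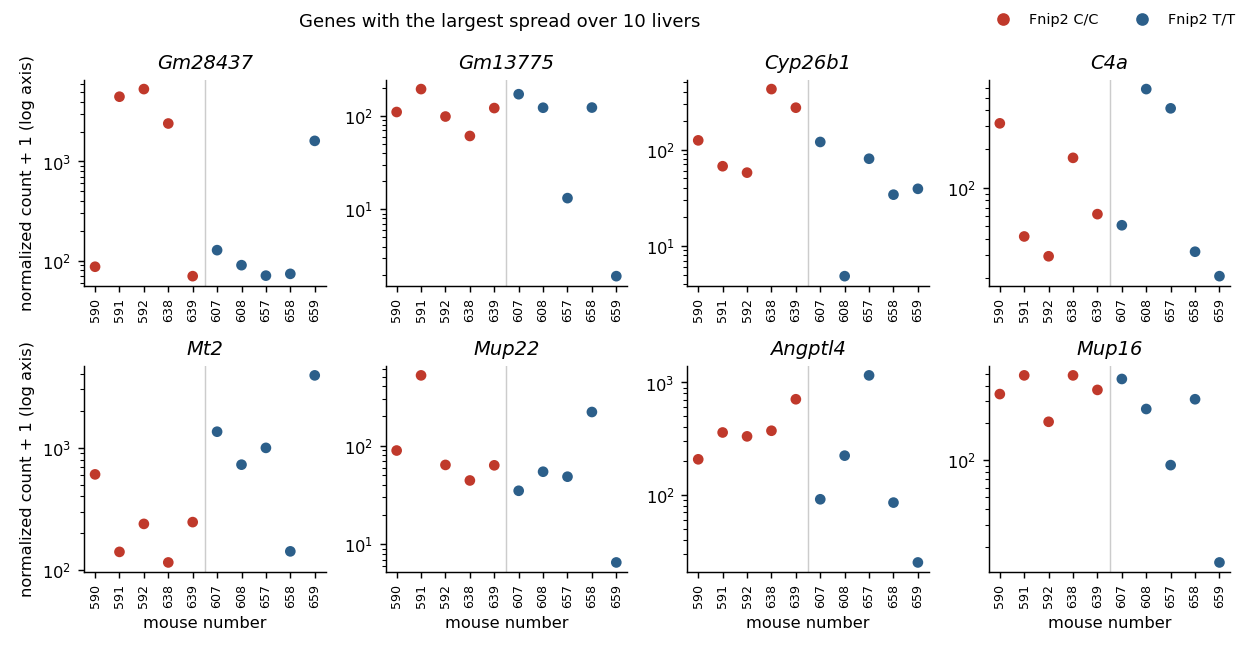
Normalized count + 1 (y axis, log scale) of the 8 genes with the largest spread over the 10 livers, 1 point per mouse ordered by genotype and mouse number (x axis), C/C in red and T/T in blue. High and low livers occur in both genotypes, and mouse 659 is lowest for *Gm13775*, *C4a*, *Mup22*, *Angptl4* and *Mup16* and highest for *Mt2*.

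Mouse numbers over 630 were compared with those under 610 in a fit that also held genotype. What the ranges stand for is not given in the sources used here. Limma called 0 genes, with a lowest adjusted p of 0.107, and 550 genes (4.7%) had an unadjusted p under 0.05, 260 higher and 290 lower in the upper range. DESeq2 on the recovered reads called 5 genes, *Igfbp1*, *Hsph1*, *Ppard*, *Nfil3* and *H1f2*. *Hsph1*, a cytosolic chaperone and the gene with the lowest adjusted p in limma, ran from 146.8 to 229 in the lower range and from 268 to 384 in the upper (log2 difference 0.88 ± 0.14, SE), and its genotype difference was 0.00. *Nfil3*, a repressor of the clock output, ran from 82.4 to 179 and from 229 to 270 (1.07 ± 0.19). These genes, and the others named for the number ranges, were chosen after their values were seen.

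Chaperone, sterol and clock lists held more such genes than the 4.7% of all genes. Of 19 endoplasmic reticulum chaperones, 7 had an unadjusted p under 0.05, all higher in the upper range (list median 0.30, all genes -0.01), among them *Hspa5*, the main chaperone of that compartment, at 0.56 ± 0.14 (SE) and *Sdf2l1* at 0.67 ± 0.14. Of 24 sterol genes, 6 did, all lower (median -0.29), with *Hmgcs1* at -0.59 ± 0.15 and *Msmo1* at -0.54 ± 0.15. Of 19 clock genes, 7 did, 4 higher (*Nfil3*, *Cry1*, *Npas2* and *Arntl*) and 3 lower (*Dbp*, *Nr1d1* and *Nr1d2*). *Arntl* encodes the activator BMAL1, whose mRNA is known to peak in the opposite phase to those of *Dbp* and *Nr1d1*. *Dbp* was 140 and 96.2 in mice 591 and 607 and 19.8 or less in the other 8 livers. With a term for number range the genotype fit still called 0 genes, and the log2 difference of *Fnip2* was 0.59.

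White adipose tissue (WAT) of 4 C/C and 5 T/T mice, 6 of which also gave a liver, in a table normalized separately, gives the same genes in another tissue. There 4111 of 12798 genes (32.1%) passed the adjusted limma test, and of the 77 genes named by rule in liver 60 were tested in WAT and 19 passed (31.7%), near that share. Of the 29 genes that did not overlap in liver, 24 were tested in WAT, 9 had a difference of the same sign there, and 9 passed. *Rabl2*, *Poc5* and *Slc39a6*, lower in C/C liver by mean, had WAT log2 differences of 1.03, 0.84 and 0.73 (adjusted p = 0.0133, 0.0169 and 0.0385, limma), while *Nt5c*, also lower in liver (-0.37), had -1.86 in WAT (adjusted p = 0.00337, limma) and *Zfp874b* had 0.88 in WAT (adjusted p = 0.00777) beside 0.53 in liver. *Hilpda* and *G0s2* had WAT log2 differences of -1.98 and -4.29 (adjusted p = 0.00102 and 0.00375) beside -0.55 and -0.91 in liver. *Angptl4* had -1.25 in WAT (adjusted p = 0.0282) beside 1.40 in liver, where the 95% interval ran from -0.76 to 3.56 and the value was 0.785 without T/T mouse 659. *Fnip2* had -0.27 in WAT (adjusted p = 0.58). The difference between the tissues was not tested.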

How the data were processed

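RNA of livers (250 ng) and visceral white adipose tissue (500 ng) was sequenced with the QuantSeq 3′ FWD kit, in 4 runs per mouse. For each tissue the authors deposited a table of signal values, that is normalized counts (gene reads divided by 1 size factor per library, runs of a mouse combined, each tissue on its own). The submitters' processing notes name FastQC 0.11.9, HISAT2, SAMtools 1.12, HTSeq, DESeq2 and the build GRCm39, without their roles. DESeq2's size factors recomputed from the liver reads equalled the deposited ones, and no gene of the liver table had fewer than 10 reads over the 10 livers. No molecular identifiers are mentioned, so reads are not independent molecules.

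Liver values gave whole reads for 100% of entries (within 1.8e-09). Of the WAT columns, 1 matched no label and was not used. Samples were grouped by genotype label, and columns by their RNA number. Values were log2-transformed with a pseudocount of 1, genes under a mean normalized count of 10 were dropped, and limma 3.58.1 (R 4.3.3; trend and robust options) gave differences as C/C minus T/T with Benjamini-Hochberg adjustment at 0.05. It was tested on simulated counts. Single genes were compared with exact two-sided permutation tests, and correlations with 100000 permutations. Nothing states whether the tissues of 1 group came from separate litters or cages, so p-values measure the spread between these mice.

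The genes named by rule were *Fnip2*, *Fnip1* and *Flcn*, the 10 lowest-p genes on each side without overlap, the 2 lowest-p members of each program list, the 8 genes of mean at least 100 with the largest spread, and sex and cell type markers. A gene that this rule names is not reported here. Other genes (*Tfeb*, *Tfe3*, *Rragc*, *Saa2*, *Fgl1*, *Hamp*, *Cyp7a1*, *A1bg*, *Cux2* and those named for the number ranges) fall outside the rule and were picked with their values in view. The members and the lists were chosen with earlier results of these data known. Seed and 50-base word matches used RefSeq (GRCm38.p6) and GENCODE vM21. Alternatives were other pseudocounts, filters, scalings, weights and variance models, a term for mouse number range, edgeR 4.0.16 and DESeq2 1.42.0 on recovered reads, an adjusted p threshold of 0.1 and leaving out each mouse. A term for even against odd RNA label numbers was chosen after seeing the data.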

Additional observations from a re-analysis of the deposited data

Results flagged for a closer look

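Among the named genes, each genotype's 5 livers were examined for a single value far from the rest, with Dixon's criterion (the gap to the nearest liver over the group's range above 0.71). It was met in 17 of 154 groups of values. Chance alone gives about 1 in 20 for normal values, but these counts are untransformed and 5 of the 17 belong to genes picked for their spread, so the numbers cannot be set against each other. Values are normalized counts, each followed by the nearest other liver of its genotype.

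T/T mouse 657 was highest in 5 of them, *Cops7b* (103.6, next 88.7), *Ppp1r3g* (12.2, next 2.83), *Chac1* (19.5, next 6.50), *Herpud1* (1687, next 1001) and *Angptl4* (1156, next 223). T/T mouse 659 was highest for *Saa1* (741, next 468) and *Gm28437* (1613, next 126), mouse 608 for *Nt5c* (161, next 121) and mouse 658 for *Mup22* (219, next 53.5). Among C/C mice, 639 was highest for *Ppp1r3g* (64.4, next 16.6) and *Nudt7* (1341, next 1009), 592 for *Ier3* (42.9, next 22.6), 590 for *Mt2* (604, next 246) and 591 for *Mup22* (515, next 88.4). C/C mouse 638 was lowest for *Ms4a4b* (2.07, next 9.02) and *Psmb8* (244, next 298), and mouse 591 for *Rdh5* (132, next 169).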

How the results depend on the processing

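The count of genes called between genotypes was 0 under all 23 alternatives run, and none of the 1673 values of named genes under an alternative passed the adjusted threshold. The number at an unadjusted p under 0.05 was 231 in the reported fit, 118 with a minimum mean of 50, 436 without a filter, and 205 to 362 with 1 mouse left out. The count of intervals within -1 to 1 was 10367 to 10497 with 1 mouse left out and 7419 to 11444 otherwise. The 29 genes without overlap became 14 with a minimum mean of 50, 58 without a filter and 69 to 121 with 1 mouse left out, lowest without T/T mouse 659 and highest without C/C mouse 592, where fewer livers have to be separated. The number range count was 5 with DESeq2, and 0 to 1 with 1 mouse left out, *Igfbp1* without C/C mouse 638 and *H1f2* without T/T mouse 657. The unadjusted count for number range was 871 with library weights and 342 with a minimum mean of 50 (550 reported), and 379 to 854 with 1 mouse left out. The genotype difference of *C4a* turned to 0.048 with a term for even against odd labels, to 0.33 with library weights and ran from -0.75 to 0.46 with 1 mouse left out. Of 572 list medians, 1 moved by more than the spread between mice, ATF4 targets at -0.090 with a minimum mean of 50. For fatty acid and triglyceride synthesis this spread (SD) was 0.45 beside a median of 0.18. A median could thus change sign without counting as moved, so the count says little about stability. *Fnip1* with *Flcn* gave r = 0.747 with libraries scaled to the same total (adjusted permutation p = 0.0443). Without the 2 livers farthest from the median, r was 0.413 for this pair and 0.183 for *Fnip2* with *Fnip1*. The causes were not tested. *Fnip2* ran from 0.39 to 0.74 with 1 mouse left out. Of the 77 named genes, 29 moved by more than 1.5 times when some mouse was left out, 18 of them without T/T mouse 659.

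No paired analysis was possible because the genotypes share no mice. With 5 livers per genotype, a log2 difference under about 0.62 in the lowest quartile of genes, and under 0.28 in the highest, lay within the median 95% half-width. These half-widths hold for single genes without adjustment, so they are not the limit of the adjusted test, which is stricter. *Bmf* with a log2 difference of 1.76 and *Ppp1r3g* with 2.43 did not pass that test. Both had a mean normalized count under 10 in T/T livers. Small differences were not detectable at this depth and number of mice.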
